A study of Sus scrofa with 95 samples.

Results

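Alveolar type 2 cells are the cuboidal epithelial cells of the lung's air sacs that make pulmonary surfactant, a film of phospholipid and protein that lowers surface tension and keeps the sacs open at the end of a breath. They assemble surfactant in lamellar bodies, storage organelles that are filled with lipid by a transporter, loaded with the small hydrophobic surfactant proteins after proteases have trimmed them, and emptied into the air space. The same cells divide to replace alveolar type 1 cells, the flat cells across which gas is exchanged. The genes described here were chosen by symbol as 10 genes of alveolar type 2 cells and surfactant: the surfactant proteins SFTPA1, SFTPB, SFTPC and SFTPD, the lipid transporter ABCA3, the lysosomal protein LAMP3, the phosphate transporter SLC34A2, the protease NAPSA, the transcription factor NKX2-1 and the lipid enzyme LPCAT1. Of these, 9 were found among the 35670 genes of the count table. LAMP3 was matched to no row and is not analysed here.

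Poly(A) RNA was sequenced from 5 organs of 19 infant pigs of 5 to 10 kg, 95 libraries in all. Of the animals, 4 had cardiopulmonary bypass with deep hypothermic circulatory arrest of 75 min and 75 mg linrodostat, an inhibitor of the tryptophan-degrading enzyme IDO1. A further 7 had the same bypass and arrest without the drug (called CPB here), and 8 were controls that had anesthesia alone. Animals are named by arm and by the number they carry in the labels, each lung library is the right lower lobe of 1 animal taken directly after euthanasia, and all 3 arms share the anesthesia and the euthanasia drug pentobarbital. The labels give no sampling time after bypass and name no other drug.

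All 9 genes were abundant in every lung library, the tissue in which they are defining markers, and all 9 passed the low-count filter there. The total count of a lung library, in units of 1e6 counts, was 30.1 to 53.6 (median 35.2). The lungs of control 1 and CPB 25 stood apart from the rest. In them 4 genes without a symbol took 24.3% and 20.9% of all counts, against 0.251% to 1.91% in the other 17 lung libraries, so results are also given without these animals where they differ. Levels below are CPM, counts per 1e6 counts of the library, scaled by TMM, which sets each library against the bulk of its genes. They are not divided by transcript length, so a level of one gene is compared between animals or organs and never with that of another gene. A log2 fold change is from edgeR's quasi-likelihood test. Its standard error (SE) was taken as the absolute log2 fold change over the square root of the test's F statistic. Confidence intervals were built from this SE. Adjusted p-values are Benjamini-Hochberg values over the 17849 genes tested in lung, with a threshold of 0.05.

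No member differed between arms past the threshold in lung. In CPB against control 0 of 9 passed, where 4.71% of all tested genes did. An unadjusted p under 0.05 was held by 1 of 9 members and by 3962 of all 17849 genes. Linrodostat with CPB against control also gave 0 of 9, where 2.35% of all genes passed. There 2 of 9 members and 3087 of all 17849 genes had an unadjusted p under 0.05. Linrodostat with CPB against CPB gave 0 of 9, and 0% of all genes passed. There 0 of 9 members and 462 of all 17849 genes had an unadjusted p under 0.05. In that comparison DESeq2 called 3 genes and limma-voom 0. DESeq2 and limma-voom called 0 of the 9 in each of the 3 comparisons as well, and so did the fits without control 1 and CPB 25. The median log2 fold change of the 9 members was −0.04 in CPB against control (0.01 over all tested genes), 0.06 in linrodostat with CPB against control (0.01) and −0.02 in linrodostat with CPB against CPB (−0.01). In a piece of whole lung, fewer alveolar type 2 cells and less RNA of these genes per cell cannot be told apart.

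**Figure D1:**
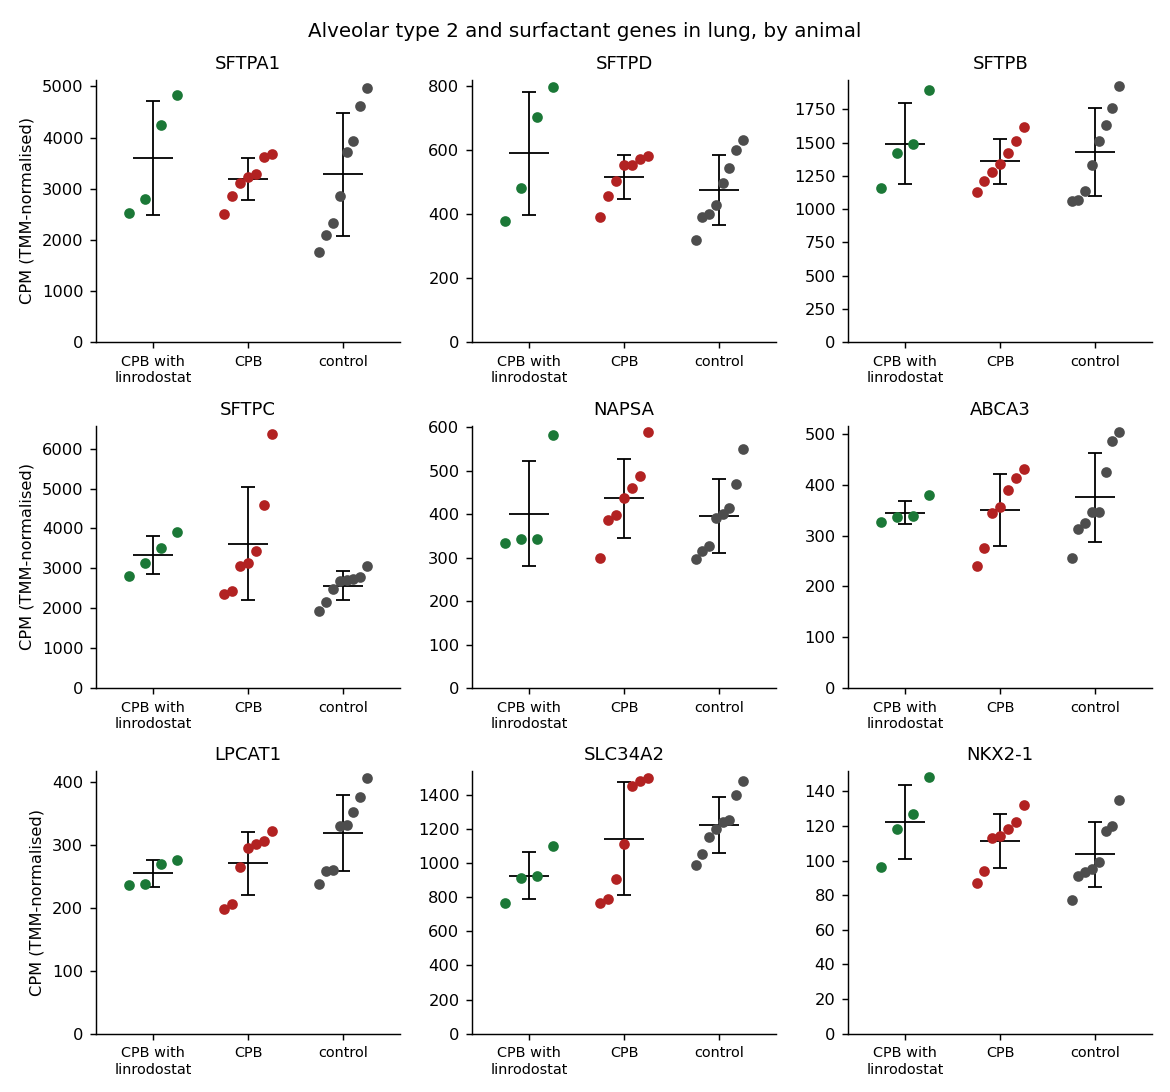
Level of each of the 9 genes in lung in CPM (vertical axis, from 0) for the animals given CPB with linrodostat (n = 4), CPB (n = 7) and control animals (n = 8); points are animals, bars the mean and 1 SD. The arms overlap for every gene, and SFTPC of CPB 19, at 6360 CPM, is the highest point of its panel.

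The collectins SFTPA1 and SFTPD, the hydrophilic surfactant proteins that bind sugars on microbes and take part in surfactant turnover, varied more between animals than between arms. SFTPA1 (ENSSSCG00000010336, chromosome 14, 82091178 to 82095393 in Sscrofa11.1) stood at 2520, 2800, 4240 and 4840 CPM in the linrodostat lungs. The CPB lungs ran from 2510 to 3680 CPM (median 3230), and the controls from 1760 to 4970 (median 3290). The controls therefore enclosed every treated lung. SFTPA1 differed by −0.04 ± 0.21 on the log2 scale in CPB against control (SE, n = 7 and 8, adjusted p = 0.932), and its 95% confidence interval reached from 0.718-fold to 1.31-fold. SFTPD (ENSSSCG00000010334) lies 21.9 kb away on the same chromosome (82051400 to 82069258), with the mannose-binding lectin gene MBL1 in between. Its levels were 380, 483, 703 and 796 CPM in the linrodostat lungs, 392 to 581 (median 552) in the CPB lungs and 320 to 630 (median 461) in the controls. Linrodostat animals 12 and 18 were above all CPB and control lungs and animal 20 was below all CPB lungs. SFTPD differed by 0.31 ± 0.19 in linrodostat with CPB against control (n = 4 and 8, adjusted p = 0.416) and by 0.12 ± 0.16 in CPB against control (adjusted p = 0.727).

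SFTPB and SFTPC are the hydrophobic proteins that spread the lipid film. SFTPB (ENSSSCG00000008229, chromosome 3, 59101940 to 59113442), without which newborn humans and mice cannot breathe, stood at 1160, 1420, 1490 and 1900 CPM in the linrodostat lungs. In the CPB lungs it ran from 1130 to 1620 CPM (median 1340) and in the controls from 1060 to 1930 (median 1420). No arm was set apart, and the difference in CPB against control was −0.07 ± 0.14 (adjusted p = 0.816, interval 0.774-fold to 1.17-fold).

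SFTPC (ENSSSCG00000009619, chromosome 14, 6440309 to 6443104), whose product is made by alveolar type 2 cells alone and is their most specific marker, had the smallest unadjusted p of the members in CPB against control. It stood at 2800, 3140, 3520 and 3910 CPM in the linrodostat lungs. The CPB lungs held 2360, 2420, 3060, 3130, 3430, 4580 and 6360 CPM, and the controls ran from 1930 to 3060 CPM (median 2690). Thus 3 of 4 linrodostat lungs and 4 of 7 CPB lungs were above every control, while none was below the lowest control. SFTPC averaged 3620 ± 1420 CPM in CPB lungs and 2560 ± 362 CPM in controls (SD, n = 7 and 8), a log2 fold change of 0.5 ± 0.18 or 1.41-fold (interval 1.09-fold to 1.83-fold). This did not pass over all genes (unadjusted p = 0.0116, adjusted p = 0.107). CPB 19 held the highest level, and without it the difference was 0.3 (adjusted p = 0.254). The adjusted p ranged from 0.0533 to 0.254 over 23 alternatives, and no alternative made the call. In linrodostat with CPB against control SFTPC differed by 0.38 ± 0.21 (adjusted p = 0.357), and in linrodostat with CPB against CPB by −0.11 ± 0.22 (interval 0.674-fold to 1.27-fold).

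Within a library, the count of SFTPC over that of SFTPB was 1.97 to 2.7 in linrodostat lungs (median 2.22), 1.81 to 4.2 in CPB lungs (median 2.67) and 1.38 to 2.57 in controls (median 1.84). Such a ratio needs no scaling between libraries, and it placed 1 of 4 linrodostat and 4 of 7 CPB lungs above all controls. The ratio of SFTPC to SLC34A2, chosen after the values were seen, was 3.03 to 4.29 in linrodostat lungs, 1.63 to 7 in CPB lungs and 1.79 to 2.39 in controls. All 4 linrodostat lungs and 5 of 7 CPB lungs were above the highest control, and CPB 6 was below the lowest. The ratio of SFTPA1 to SFTPD placed 1 of 7 CPB and 0 of 4 linrodostat lungs above all controls. It placed 2 of 7 CPB and 1 of 4 linrodostat lungs below all controls. Together the 4 surfactant proteins took 0.778% to 1.12% of all counts in linrodostat lungs, 0.677% to 1.2% in CPB lungs and 0.517% to 0.973% in controls.

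Genes of surfactant protein maturation and lipid loading showed no arm apart. NAPSA (ENSSSCG00000003212, chromosome 6, 55221203 to 55230609) encodes napsin A, an aspartic protease that trims the SFTPB precursor. It stood at 335, 343, 343 and 582 CPM in the linrodostat lungs, 299 to 589 (median 438) in the CPB lungs and 296 to 551 (median 396) in the controls. Animal 12 alone carried the high linrodostat value. NAPSA differed by 0.02 ± 0.19 in linrodostat with CPB against control (adjusted p = 0.973), and by −0.23 without animal 12. ABCA3 (ENSSSCG00000008051, chromosome 3, 39689133 to 39732466), the transporter that pumps phospholipid into lamellar bodies, held 328, 336, 339 and 380 CPM in the linrodostat lungs. It ran from 241 to 431 CPM (median 356) in the CPB lungs and from 257 to 504 (median 347) in the controls. The linrodostat lungs lay within the range of both other arms, and ABCA3 differed by −0.1 ± 0.14 in CPB against control (adjusted p = 0.74, interval 0.757-fold to 1.15-fold). Each of these genes overlaps a long noncoding RNA in the RefSeq annotation, LOC110261021 for NAPSA and LOC102159543 for ABCA3. The labels do not say whether counting used strand, so reads of the overlapping parts could come from either gene.

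SLC34A2 and LPCAT1 had the most negative fold changes of the members in linrodostat with CPB against control. LPCAT1 (ENSSSCG00000017116, chromosome 16, 79134396 to 79173775), the acyltransferase that makes the main surfactant phospholipid, dipalmitoylphosphatidylcholine, stood at 236, 237, 269 and 276 CPM in the linrodostat lungs. The CPB lungs ran from 198 to 322 CPM (median 294), and the controls from 238 to 406 (median 330). Linrodostat animals 12 and 18 and CPB animals 2 and 25 were below every control, and no treated lung was above the highest control. LPCAT1 differed by −0.24 ± 0.13 in CPB against control (adjusted p = 0.29) and by −0.32 ± 0.15 in linrodostat with CPB against control (unadjusted p = 0.0489, adjusted p = 0.285). SLC34A2 (ENSSSCG00000008758, chromosome 8, 19481127 to 19507903), the sodium-phosphate cotransporter that recovers phosphate released from surfactant, stood at 763, 911, 924 and 1100 CPM in the linrodostat lungs. It held 764, 792, 908, 1110, 1450, 1480 and 1500 CPM in the CPB lungs and 990 to 1480 CPM (median 1220) in the controls. Thus 3 of 4 linrodostat lungs and 3 of 7 CPB lungs were below every control, and CPB 21 was above every control. SLC34A2 differed by −0.4 ± 0.18 in linrodostat with CPB against control (unadjusted p = 0.0418, adjusted p = 0.265), by −0.31 ± 0.19 in linrodostat with CPB against CPB (unadjusted p = 0.115) and by −0.09 ± 0.15 in CPB against control (adjusted p = 0.781).

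NKX2-1 (ENSSSCG00000001945, chromosome 7, 63487200 to 63491580) encodes the transcription factor that sets lung epithelial identity and drives surfactant gene promoters in humans and mice. It stood at 96, 118, 127 and 148 CPM in the linrodostat lungs, 87 to 132 (median 114) in the CPB lungs and 77.3 to 135 (median 97.1) in the controls. The arms overlapped throughout, with linrodostat animal 12 above all others. NKX2-1 differed by 0.24 ± 0.14 in linrodostat with CPB against control (adjusted p = 0.405) and by 0.11 ± 0.12 in CPB against control (adjusted p = 0.658).

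The intervals bound what these lungs could have hidden. In CPB against control the 95% interval lay within 1.5-fold in either direction for 8 of the 9 members, all but SFTPC, and within 2-fold for all 9. For linrodostat with CPB against CPB it lay within 1.5-fold for 6 and within 2-fold for 9, and for linrodostat with CPB against control within 1.5-fold for 4 and within 2-fold for 9. The intervals are for the average difference between arms and not for the range of single animals. The lack of a call does not show that the levels are equal.

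**Figure D2:**
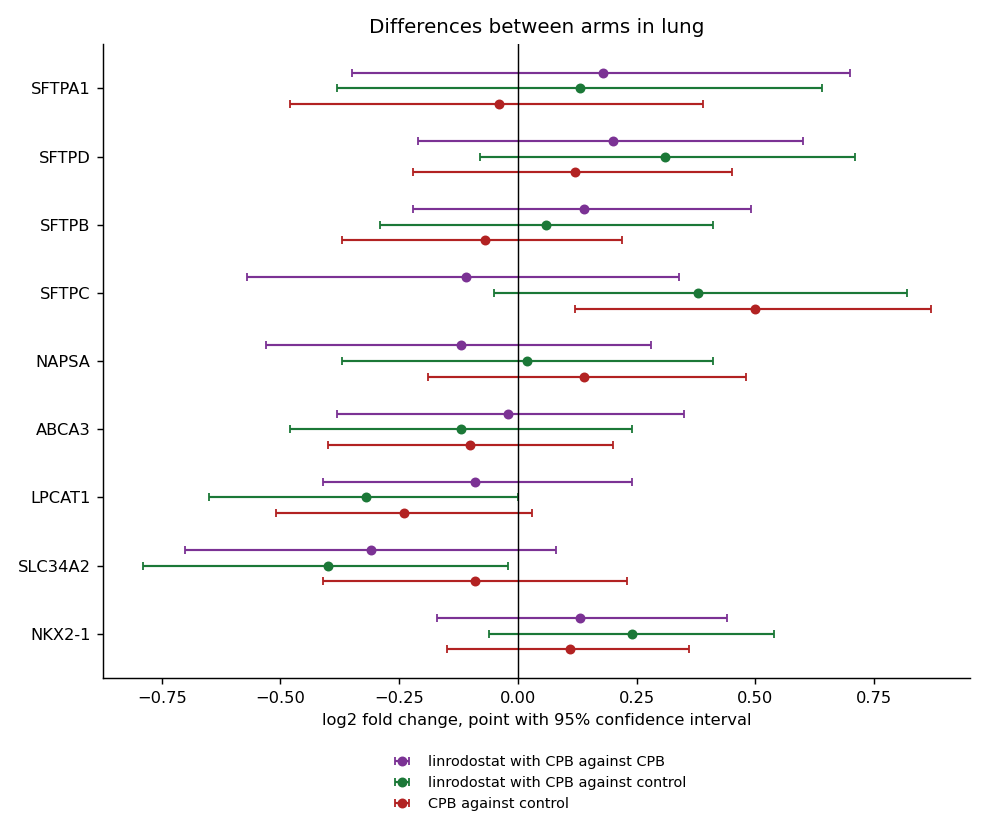
Log2 fold change of each member in lung (horizontal axis) with its 95% confidence interval, for linrodostat with CPB against CPB, linrodostat with CPB against control, and CPB against control. All intervals lie between −0.79 and 0.87; those of SFTPC in CPB against control and of SLC34A2 and LPCAT1 in linrodostat with CPB against control lie on one side of 0 or end at it.

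Single animals stood at the end of their arm's range for several genes at once. Among the 8 controls, control 4 held the lowest level of 7 of the 9 genes, the exceptions being ABCA3 and SFTPB. CPB 25, in which 4 genes without a symbol took 20.9% of all counts, held the lowest CPB level of 5 genes. CPB 21 held the highest CPB level of 4. Over the 19 lungs, with arm means removed, 35 of the 36 pairs of members had a Pearson r above 0 on log2 CPM (median 0.48, from −0.04 to 0.84), and 14 pairs had an r over 0.5. These correlations are descriptions, because the genes of a pair share a library, its depth and its sample of tissue.

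The neighbouring collectin genes SFTPA1 and SFTPD had the highest r (0.84, Spearman rho 0.85, n = 19), with 0.77 when the 2 lungs farthest from the median were left out. Within the 7 CPB lungs alone their r was 0.3, and within the 8 controls it was 0.98. The lipid genes ABCA3 and LPCAT1 followed with 0.76 (0.69 without the 2 farthest lungs, 0.77 within CPB and 0.83 within controls), and LPCAT1 and SLC34A2 had 0.73. NKX2-1 had an r of 0.73 with SFTPD, 0.65 with NAPSA and 0.63 with SFTPA1, and of −0.04 with SFTPC. Within the CPB lungs NKX2-1 had −0.07 with SFTPA1, 0.57 with SFTPD and 0.69 with NAPSA. Within the controls these were 0.79, 0.76 and 0.59. SFTPA1 and NAPSA had 0.59 over all lungs, −0.25 within CPB and 0.89 within controls. Over the 19 lungs SFTPB and SFTPC had 0.46, and SFTPB and its protease gene NAPSA had 0.39. SFTPC had a median r of 0.26 with the other 8 members over the 19 lungs. Its r ran from −0.36 to 0.68 within the CPB lungs and from 0.44 to 0.75 within the controls.

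**Figure D3:**
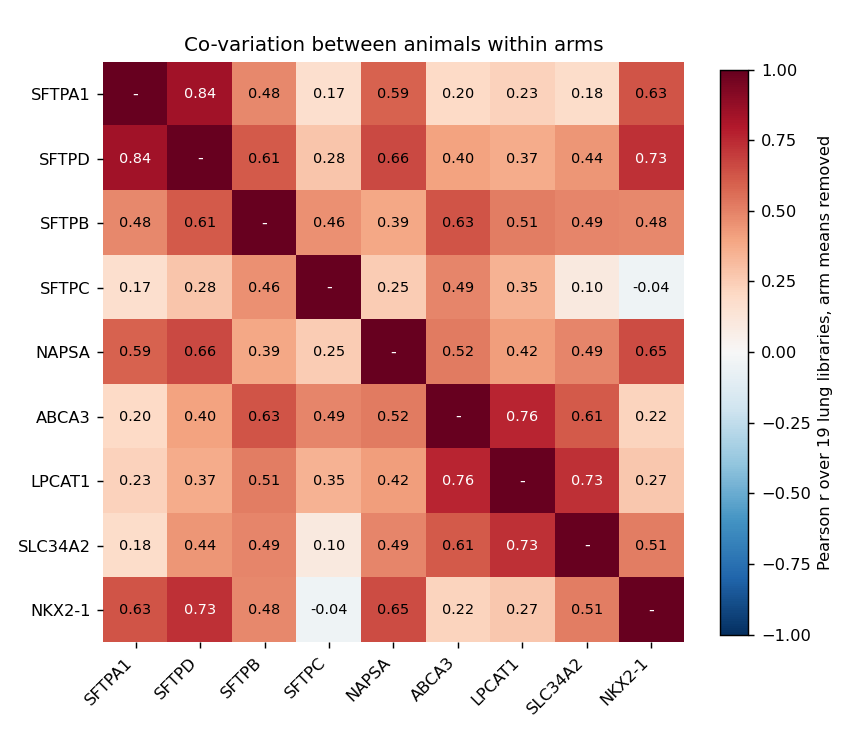
Pearson r between members over 19 lung libraries after arm means were removed (both axes list the 9 genes; colour and number give r). SFTPA1, SFTPD, NAPSA and NKX2-1 have values of 0.59 to 0.84 among themselves, and ABCA3, LPCAT1 and SLC34A2 of 0.61 to 0.76. SFTPC has values of −0.04 to 0.49 with the others. Within the CPB lungs alone SFTPA1 has 0.3 with SFTPD, −0.25 with NAPSA and −0.07 with NKX2-1. Within the controls it has 0.98, 0.89 and 0.79.

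The genes outside the members whose lung level followed the members' mean most closely were C5, a complement component (r = 0.87, n = 19), FKBP14 (0.8), the epithelial membrane protease gene ST14 (0.79), ZC3H8 (0.78), DMTN (0.77) and the palmitoyltransferase gene ZDHHC3 (0.74). With the 2 farthest lungs left out their r ran from 0.64 for DMTN to 0.83 for C5. None of them differed in CPB against control (C5 by 0.13 ± 0.18, adjusted p = 0.741).

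Other genes of the alveolar type 2 cell are set against all tested genes, of which 4.71% passed in CPB against control. In linrodostat with CPB against control 2.35% passed. Of 13 tested further markers of the cell 0 rose and 1 fell in CPB against control, with a median log2 fold change of 0.07. The one was ACOXL, at 0 to 1.29 CPM in CPB lungs and 0.239 to 4.61 CPM in controls (−2.36 ± 0.65, adjusted p = 0.0404). Leaving out any of 12 single animals ended this call, namely controls 1, 7, 10, 14, 15 and 26 and CPB 2, 9, 11, 19, 21 and 25, with adjusted p-values of 0.0529 to 0.0716. It also ended with only the 2 arms compared (adjusted p = 0.0632), no low-count filter (0.0638), and control 1 and CPB 25 left out together (0.0937). CTSH, a protease of SFTPB and SFTPC maturation, differed by 0.18 ± 0.17 (adjusted p = 0.565), and MFSD2A, a lipid transporter, by 1.4 ± 0.44 (adjusted p = 0.0704). In linrodostat with CPB against control 0 of the 13 passed. There ACOXL differed by −2.27 ± 0.8 (adjusted p = 0.134) and passed with DESeq2 (0.0264) and with only the 2 arms compared (0.0489).

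Among 21 genes of lipid synthesis 1 rose and 1 fell in CPB against control, where 4.71% of all tested genes passed in either direction. The list's median log2 fold change was 0.02. CHKA, choline kinase, which starts the pathway to phosphatidylcholine, stood at 105 to 190 CPM in linrodostat lungs, 85.4 to 162 in CPB lungs and 52.6 to 80.7 in controls. All 11 lungs after bypass were above every control. CHKA rose by 0.81 ± 0.15 in CPB lungs (adjusted p = 0.00666) and by 1.14 ± 0.17 in linrodostat lungs (adjusted p = 0.00279), both against control, and it passed under every alternative of both comparisons. The cholesterol sensor gene SCAP fell by 0.25 ± 0.07 in CPB against control (adjusted p = 0.0495). The loss of any single control, or of CPB 2, 9, 11, 19, 21 or 25, took SCAP over the threshold, with adjusted p-values of 0.0511 to 0.099. So did limma-voom (adjusted p = 0.0514), sex as a covariate (0.0533), only the 2 arms compared (0.0738), no low-count filter (0.112), and control 1 and CPB 25 left out together (0.14). PCYT1A, the rate-limiting enzyme of phosphatidylcholine synthesis, differed by 0.09 ± 0.07 (adjusted p = 0.457), and FASN, fatty acid synthase, by −0.33 ± 0.16 (adjusted p = 0.243).

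In CPB against control 4.71% of all genes passed. Of 18 genes of surfactant processing and clearance 0 rose and 1 fell there, with a median of −0.01. It was NEDD4, a ubiquitin ligase that in cell studies sorts the SFTPC precursor, at 27.9 to 37.8 CPM in CPB lungs and 27.3 to 57.9 in controls (−0.48 ± 0.12, adjusted p = 0.0318). NEDD4 missed the threshold when controls 1, 7, 10 and 26 or CPB 19, 21 and 25 were dropped one at a time, at adjusted p-values of 0.0527 to 0.0718, and at 0.114 without control 1 and CPB 25 together. NEDD4 also fell in linrodostat with CPB against control (−0.65 ± 0.15, adjusted p = 0.0259), a call that ended without any one of the 4 linrodostat animals (adjusted p 0.0591 to 0.0921). Of 16 transcription factors of lung epithelium 0 passed in either comparison with control. CEBPD, a steroid-responsive factor, came nearest, with 0.65 ± 0.2 in CPB against control (adjusted p = 0.0593) and 0.72 ± 0.23 in linrodostat with CPB against control (adjusted p = 0.0967). DESeq2 called it in CPB against control (adjusted p = 0.0218) and in linrodostat with CPB against control (adjusted p = 0.0481), and it passed by edgeR in CPB against control when CPB 6, 11 or 19 or control 13 was dropped (adjusted p-values 0.0431 to 0.0492). CEBPA differed by −0.44 ± 0.14 (adjusted p = 0.0741) and FOXA2 by −0.02 ± 0.12 (adjusted p = 0.945) in CPB against control. In linrodostat with CPB against CPB 0 genes of every list passed.

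Some markers of the other epithelial cells passed. Over all tested genes 4.71% passed in CPB against control and 2.35% in linrodostat with CPB against control. Of 13 alveolar type 1 markers 0 rose and 2 fell in CPB against control, RTKN2 by 1.2 ± 0.26 (adjusted p = 0.0142) and GPRC5A by 0.67 ± 0.17 (adjusted p = 0.0286) on the log2 scale. The GPRC5A call ended without CPB 2 or CPB 25 (adjusted p 0.0572 and 0.0646), and both calls ended without control 1 and CPB 25 together (adjusted p = 0.0622 for RTKN2 and 0.0966 for GPRC5A). AGER, the receptor that defines the type 1 cell, stood at 1650 ± 179 CPM in linrodostat lungs, 1670 ± 352 in CPB lungs and 1660 ± 253 in controls (SD). The summed type 1 markers were 3960 to 5240 CPM in linrodostat lungs, 3750 to 4870 in CPB lungs and 3760 to 4800 in controls. Of 10 pan-epithelial markers 1 rose, CDH1 (E-cadherin), by 0.43 ± 0.12 in CPB against control (adjusted p = 0.0378) and by 0.61 ± 0.14 in linrodostat with CPB against control (adjusted p = 0.0213). Dropping one of controls 1, 4, 7, 10, 14 and 26 or of CPB 2, 11, 19, 21 and 25 ended the CPB call (adjusted p-values 0.0578 to 0.0856), as did no low-count filter (0.0566) and control 1 and CPB 25 left out together (0.104), and dropping linrodostat animal 18 or 24 ended the other (adjusted p-values 0.0503 to 0.105). The summed pan-epithelial markers were 1110 to 1450 CPM in linrodostat lungs (median 1120), 853 to 1460 in CPB lungs (median 1130) and 672 to 1240 in controls (median 856). The list's median log2 fold change was 0.31 in linrodostat with CPB against control and 0.21 in CPB against control, where that of all genes was 0.01 in both. The part of this shift in the levels of the surfactant genes was not tested. Of 9 airway secretory and basal markers and 9 ciliated markers 0 passed. The airway secretory and basal sum ran from 293 to 1700 CPM in linrodostat lungs, 40.7 to 4820 in CPB lungs and 21.7 to 2840 in controls. The ciliated sum ran from 196 to 328 CPM in linrodostat lungs, 204 to 348 in CPB lungs and 141 to 477 in controls. The share of airway in the pieces of lung was not tested.

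Some markers of immune cells and vessels also changed in the same libraries. Again, the share over all genes was 4.71% in CPB against control and 2.35% in linrodostat with CPB against control. Of 14 macrophage and monocyte markers 7 fell and 0 rose in CPB against control, among them TIMD4 (−1.37 ± 0.2, adjusted p = 0.00139) and SIGLEC1 (−1.35 ± 0.24, adjusted p = 0.00576). Their sum was 4340 to 8040 CPM in linrodostat lungs, 4070 to 8450 in CPB lungs and 8000 to 14000 in controls. Of 8 neutrophil markers 4 rose and 0 fell, among them the decoy receptor IL1R2 (2.58 ± 0.43, adjusted p = 0.00327), with sums of 245 to 457 CPM in linrodostat lungs, 241 to 426 in CPB lungs and 152 to 305 in controls. Of 12 endothelial markers 1 rose and 3 fell, with KDR, the main VEGF receptor, at −0.9 ± 0.12 (adjusted p = 0.00125), and sums of 3550 to 5380 CPM in linrodostat lungs, 3110 to 4830 in CPB lungs and 3290 to 5040 in controls. Without control 1 and CPB 25 together the calls in CPB against control were fewer, with 2 macrophage markers that fell, 1 neutrophil marker that rose, and 2 endothelial markers that fell. Of 10 T and NK cell markers, 9 mature dendritic cell markers and 12 fibroblast and smooth muscle markers 0 passed. Of 17 interferon response genes IFIT2 alone fell (−1.63 ± 0.34, adjusted p = 0.0132), while the median log2 fold change of the 17 was −1.44. Their sum was 416 to 1740 CPM in linrodostat lungs, 495 to 2330 in CPB lungs and 1270 to 13000 in controls. Of 11 steroid-induced genes 2 rose, MT1A (3.43 ± 0.61, adjusted p = 0.0053) and DUSP1 (1.08 ± 0.21, adjusted p = 0.00744). No marker in these lists was at 0 in all 19 lungs, and the part of these cells in the levels of the surfactant genes was not tested. In linrodostat with CPB against control 5 macrophage markers fell, 3 neutrophil markers rose, 1 endothelial marker rose and 2 fell, 2 interferon genes fell and 2 steroid-induced genes rose.

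Across organs some members were near 0 outside lung and others were used elsewhere too. Organs were scaled separately, so a level set across organs is approximate. SFTPB, SFTPC and NKX2-1 had a median of 0 CPM in heart, ileum and liver, while in lung the lowest animal stood at 1060 CPM for SFTPB, 1930 CPM for SFTPC and 77.3 CPM for NKX2-1. SFTPB and NKX2-1 had 0 counts in all 19 hearts. ABCA3 was at 241 to 504 CPM in lung and 42.6 to 103 CPM in ileum. It reached 20.2 to 101 CPM in liver, 9.94 to 27.1 CPM in kidney and 3.71 to 11.1 CPM in heart. Lung lay above all others, and each of the other neighbours in that order overlapped. LPCAT1 ran from 198 to 406 CPM in lung and 49.7 to 106 in ileum, then 12.9 to 36.2 in kidney, 6.63 to 13.9 in heart and 5.81 to 13 in liver. The ranges of lung, ileum and kidney were separate, and those of kidney and heart and of heart and liver overlapped. NAPSA had medians of 33.5 CPM in ileum and, well below, of 1.75 CPM in kidney, of 1.29 CPM in liver and of 0.904 CPM in heart, and SFTPD, a collectin also made in gut epithelium, had 13.6 CPM in ileum and 0.075 CPM or less in kidney, liver and heart. SLC34A2 had 2.02 CPM in kidney and 0.313 CPM or less in ileum, heart and liver.

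**Figure D4:**
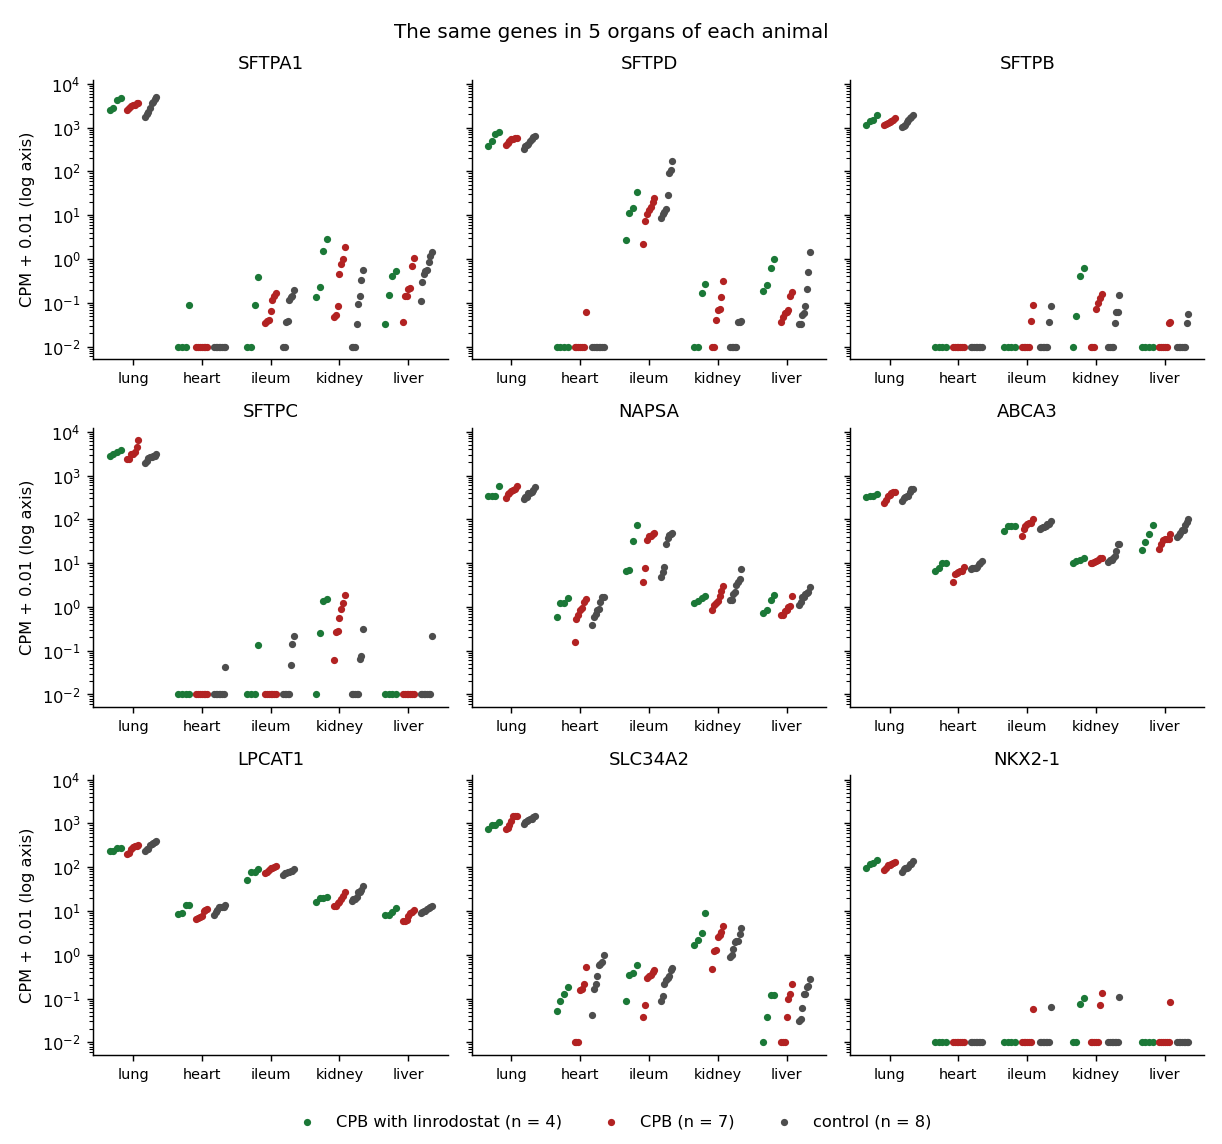
Level of the 9 genes in 5 organs, as CPM + 0.01 on a log axis, by animal, for CPB with linrodostat (n = 4), CPB (n = 7) and control animals (n = 8). Lung lies above every other organ for each gene; points at the bottom are libraries with 0 counts.

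The members tested in liver were SFTPA1, SFTPD, ABCA3, NAPSA and LPCAT1. Of these, 3 fell in CPB against control, where 11.3% of all tested genes fell. ABCA3 stood at 20.2 to 74 CPM in linrodostat livers, 20.8 to 47.2 in CPB livers and 39.5 to 101 in control livers, with 6 of 7 CPB livers below every control. It fell by 0.92 ± 0.25 on the log2 scale in CPB against control (adjusted p = 0.0124). NAPSA fell by 0.93 ± 0.27 (adjusted p = 0.0157) at 0.633 to 1.76 CPM in CPB livers and 1.12 to 2.83 in control livers, and LPCAT1 by 0.49 ± 0.15 (adjusted p = 0.0176) at 5.81 to 10.7 CPM in CPB livers and 9.16 to 13 in control livers. The ABCA3 call held under every alternative, and those of NAPSA and LPCAT1 ended without control 1 and CPB 25 together (adjusted p = 0.0701 for NAPSA and 0.0695 for LPCAT1).

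The members tested in heart were ABCA3, SLC34A2, NAPSA and LPCAT1, and in kidney these with SFTPA1 and SFTPC. In heart ABCA3 stood at 6.14 ± 1.37 CPM in CPB animals and 8.67 ± 1.34 CPM in controls (SD, n = 7 and 8). Its fall by 0.5 ± 0.16 was a call (adjusted p = 0.0435), where 5.53% of genes fell. It was lost when controls 1, 7, 10, 13, 14 and 26 or CPB 2, 9, 11, 19, 21 and 25 were dropped one at a time, at adjusted p-values of 0.0502 to 0.0826, and also with sex as a covariate (0.0516), no low-count filter (0.0861), and control 1 and CPB 25 left out together (0.129). In kidney it stood at 11.3 ± 1.21 CPM in CPB animals and 16.7 ± 6.79 CPM in controls and fell by 0.56 ± 0.19 (adjusted p = 0.0447), where 9.86% of genes fell. Here the single animals whose loss ended the call were controls 1, 14 and 15 and CPB 2, 6, 11, 21 and 25, with adjusted p-values of 0.0577 to 0.0879. It also ended with sex as a covariate (adjusted p = 0.0561), only the 2 arms compared (0.0612), no low-count filter (0.0679), limma-voom (0.0897), and control 1 and CPB 25 left out together (0.117). LPCAT1 differed by −0.42 ± 0.16 in heart (adjusted p = 0.0799) and by −0.46 ± 0.18 in kidney (adjusted p = 0.0723). It passed in heart without CPB 9 (adjusted p = 0.0388), and in kidney with DESeq2 (0.047) and without control 10, control 13 or CPB 19 (0.0246 to 0.0457). NAPSA in kidney stood at 1.21 to 1.77 CPM in linrodostat animals, 0.818 to 3.05 in CPB animals and 1.43 to 7.36 in controls, and differed by −0.94 ± 0.35 in CPB against control (adjusted p = 0.063). It passed with DESeq2 (0.0311) and without control 10, control 26 or CPB 11 (0.0273 to 0.042). SLC34A2 differed in CPB against control by −1.57 ± 0.78 in heart (adjusted p = 0.191) and by 0.18 ± 0.45 in kidney (adjusted p = 0.807). Its heart levels were 0 to 0.983 CPM. SFTPD in liver differed by −1.97 ± 0.85 at 1 to 6 counts in CPB livers and 1 to 77 in control livers (adjusted p = 0.0892, and 0.0483 with DESeq2). In ileum, where 0% of genes passed, ABCA3 differed by 0.03 ± 0.15 and LPCAT1 by 0.22 ± 0.12 (adjusted p = 1 for both). SFTPD in ileum stood at 2.65 to 33.9 CPM in linrodostat animals, 2.14 to 24.1 in CPB animals and 8.42 to 171 in controls, a difference of −2.05 ± 0.72 in CPB against control (unadjusted p = 0.0101, adjusted p = 0.822).

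**Figure D5:**
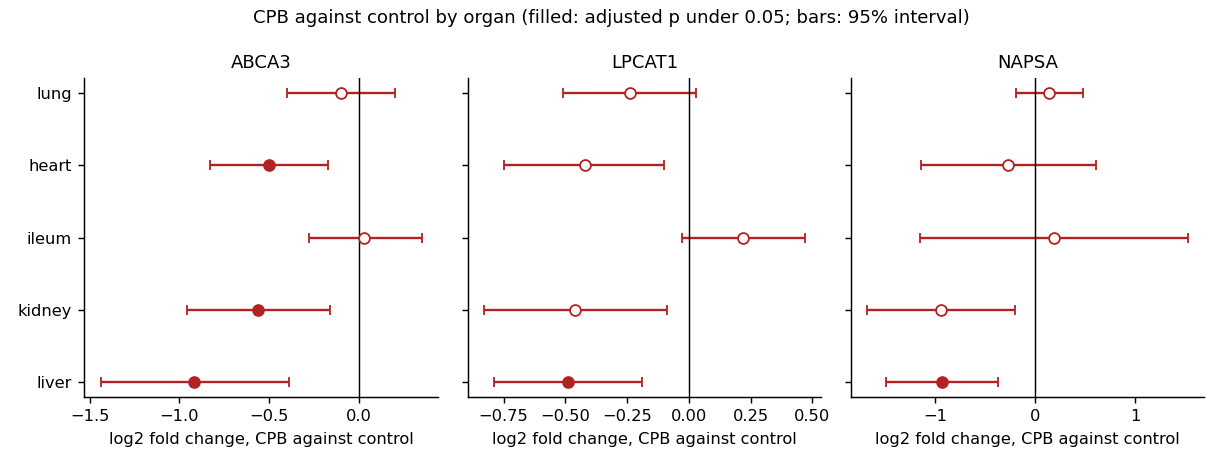
Log2 fold change in CPB against control (horizontal axis) of ABCA3, LPCAT1 and NAPSA, the members tested in all 5 organs. Lung, heart, ileum, kidney and liver are shown with 95% confidence intervals, and filled points have an adjusted p under 0.05. The lung points, at −0.1, −0.24 and 0.14, are open, and all 3 liver points are filled.

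The difference between organs was tested as such, by the change of the CPB effect between lung and each other organ. This used 1 fit of all 95 libraries, which took the organs of an animal as independent. A fit with the animal as a block was an alternative. ABCA3 was 0.85 ± 0.26 higher on the log2 scale in lung than in liver (adjusted p = 0.0438, where 3.91% of genes passed), and 0.83 ± 0.24 with the animal as a block (adjusted p = 0.0264). It differed by 0.43 ± 0.26 from heart (adjusted p = 0.545, 1.42% of genes passed), by 0.5 ± 0.26 from kidney (adjusted p = 0.522, 1.22%) and by −0.14 ± 0.26 from ileum (adjusted p = 0.989, 0.261%). NAPSA, at 1.11 ± 0.57 against liver (adjusted p = 0.298), and LPCAT1, at 0.28 ± 0.21 (adjusted p = 0.534), did not pass. Neither did SFTPD against ileum, at 2.21 ± 0.68 (adjusted p = 0.245), nor SLC34A2 against heart, at 1.49 ± 0.71 (adjusted p = 0.365). All heart libraries, in every arm, carry another batch label than the other organs. A batch shift shared by the arms cancels in that test. An effect of batch on the CPB difference cannot be told apart from heart.

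Trace counts of surfactant transcripts appeared in kidney, mostly in animals after bypass. SFTPA1 had trace counts in liver too, 348 over 19 livers against 340 over 19 kidneys. In liver its mean was higher in controls, at 0.663 ± 0.45 CPM against 0.344 ± 0.372 CPM in CPB animals (SD). The difference in CPB against control there was −0.98 ± 0.65 (adjusted p = 0.273). SFTPC had 0, 6, 41 and 59 counts in linrodostat kidneys, 2, 6, 9, 15, 29, 41 and 62 in CPB kidneys, and 0 in 5 of 8 control kidneys, with 2, 3 and 12 in the rest. In CPM it averaged 0.78 ± 0.769 in linrodostat kidneys, 0.721 ± 0.63 in CPB kidneys and 0.0531 ± 0.106 in controls (SD). SFTPC rose by 3.67 ± 0.99 in CPB kidneys against control (adjusted p = 0.0133), where 11.3% of genes rose, and by 3.79 ± 1.06 in linrodostat kidneys against control (adjusted p = 0.0172), where 11.7% did. At least 10 counts were reached in 2 of 4 linrodostat, 4 of 7 CPB and 1 of 8 control kidneys, so SFTPC passed the low-count filter through the kidneys in which it is high, and that entry favours a call. With no low-count filter the adjusted p was 0.0263 for linrodostat with CPB and 0.0209 for CPB, each against control. The CPB call held under every alternative in which SFTPC passed the low-count filter (it did not with only the 2 arms compared), and without control 4, the control with 12 counts, the difference was 5.08. The linrodostat call of SFTPC ended with limma-voom (adjusted p = 0.0896) and without linrodostat animal 12 (0.0587) or 20 (0.0674), and without control 4 the difference was 5.19. SFTPA1 had 3 to 88 counts in linrodostat kidneys, 1 to 63 in CPB kidneys and 0 to 22 in controls. It rose in linrodostat with CPB against control (3.03 ± 1.06, adjusted p = 0.0493) and differed by 2.07 ± 0.96 in CPB against control (adjusted p = 0.13). SFTPA1 had at least 10 counts in 2 of 4 linrodostat, 4 of 7 CPB and 2 of 8 control kidneys, and thus also passed the low-count filter mainly through kidneys after bypass. Its call lay at the threshold and ended with relative log expression size factors (adjusted p = 0.0502), sex as a covariate (0.0551), only the 2 arms compared (0.0574), no low-count filter (0.0796), and control 1 and CPB 25 left out together (0.0911). It also ended without any one of controls 1, 7, 13, 14, 15 and 26 and linrodostat animals 12, 18 and 20 (adjusted p-values 0.0549 to 0.238), with a difference of 2.09 without animal 12 and of 3.8 without control 4. Summed over 19 kidneys, SFTPA1 gave 47.0%, SFTPC 39.7%, SFTPB 8.44% and SFTPD 4.84% of the 723 counts of these 4 genes. In lung SFTPA1 gave 39.3%, SFTPC 37.4%, SFTPB 17.1% and SFTPD 6.19%. Linrodostat 12 and 20 and CPB 6 weighed most in the kidney sum, with 88, 57 and 63 counts of SFTPA1. These kidneys held 41, 59 and 62 counts of SFTPC. Single kidneys differed, with 1 SFTPA1 and 15 SFTPC counts in CPB 19 and 12 and 2 in control 10. NKX2-1 had 15 counts in all 19 kidneys. The CPB effect on SFTPC in lung minus that in kidney was −3.11 ± 0.84 on the log2 scale (adjusted p = 0.0431), a call that ended with the animal as a block (−3.03 ± 0.95, adjusted p = 0.112). The origin of these counts was not tested.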

How the data were processed

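The authors deposited 1 table of expected counts, that is, estimated counts per gene with no scaling for depth or length, for 95 libraries. Per the labels' protocols, poly(A) RNA went into a Tecan mRNA kit and was read from both ends on an Illumina NovaSeq. The submitters' processing notes list STAR, Salmon, Trim Galore, cutadapt, bcl2fastq and MultiQC without versions, and the build Sscrofa11.1. The program that made the counts and its strand setting are not given in the sources used here.

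Between 92.7% and 96.6% of values per library were whole, and the rest were rounded. Symbols came from the table (17508 genes) and an ID table (223 genes), and coordinates from RefSeq for Sscrofa11.1, matched by symbol. Each organ was fitted alone over its 3 arms with edgeR 4.0.16 (filterByExpr, TMM, robust quasi-likelihood F test) in R 4.3.3, with Benjamini-Hochberg adjustment over all genes tested in the organ. A prior count of 2 went into log2 CPM. The biological coefficient of variation in lung was 0.339. Contrasts of lung with another organ used 1 fit of 20321 genes. Alternatives used DESeq2 1.42.0, limma-voom (limma 3.58.1) and the settings given in the closing section. The code was tested on simulated data.

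Samples are separate animals. No 2 lung libraries of an arm agreed within sampling noise (55 pairs). The labels give each animal 1 number across organs. The deviations of a lung library correlated with those of the same animal's other organs with a median r of 0.173 for heart, 0.152 for ileum, 0.19 for kidney and 0.176 for liver. The members and the 16 gene lists (206 of 220 symbols found) were chosen with earlier results of these data known. Text names all members, up to 3 passing genes per list and comparison or else the one with the smallest p, the 6 genes most like the members, and a few further list genes chosen after their values were seen. AGPAT2 and GZMA each match more than 1 row.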

Additional observations from a re-analysis of the deposited data

Results flagged for a closer look

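In lung, NAPSA of linrodostat animal 12 stood at 582 CPM, far from the other 3 linrodostat animals at 335 to 343 CPM. In ileum, ABCA3 of linrodostat animal 24 stood at 53.4 CPM and the other 3 at 70.1 to 71.7 CPM. In kidney, SFTPC of control 4 stood at 0.306 CPM and the other controls at 0 to 0.0639 CPM. Such a gap was looked for in 87 groups of 4 to 8 animals, and chance alone flags about 1 group in 20. The CPB effect differed between organs for 2 members, by −3.11 for SFTPC in lung against kidney and by 0.85 for ABCA3 in lung against liver. The SFTPC call ended with the animal as a block (adjusted p = 0.112). It rests on trace counts in kidney, where at least 10 were reached in 4 of 7 CPB and 1 of 8 control kidneys.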

How the results depend on the processing

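In lung, 0 members passed in each of the 3 comparisons under every alternative run: relative log expression size factors, library sizes without the members, DESeq2, limma-voom, sex as a covariate, no low-count filter, only the 2 arms compared, each animal left out, and, added after the data were seen, control 1 and CPB 25 left out together. Counts over all genes moved more. CPB against control called 840 genes, 1731 with DESeq2, 189 without control 1 and CPB 25 together, and 322 to 1336 with 1 animal left out. Linrodostat with CPB against control called 419, 278 with no low-count filter, 1107 with DESeq2, 232 without both animals, and 86 to 536 with 1 animal left out. Linrodostat with CPB against CPB called 0 genes by edgeR and limma-voom and 3 by DESeq2. With the animal as a replicate block, the lung against ileum contrast called 32 genes in place of 53, the block ended the SFTPC call against kidney (−3.03, adjusted p = 0.112), and it changed no other member's call.

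Fold changes near 0 turned sign under some settings. In CPB against control in lung SFTPA1 was 0.03 with limma-voom. In linrodostat with CPB against CPB ABCA3 was 0.01 with limma-voom. In ileum ABCA3 was 0 with limma-voom and −0.05 without control 1 and CPB 25, and SLC34A2 was 0 with no low-count filter. With 1 animal left out, sign turned for SFTPA1 (−0.14 to 0.06) and SFTPB (−0.13 to 0) in CPB against control. It also turned for SFTPA1 (0 to 0.31), SFTPB (0 to 0.24), SFTPC (−0.2 to 0.08) and ABCA3 (−0.09 to 0.04) in linrodostat with CPB against CPB. In linrodostat with CPB against control it turned for SFTPA1 (−0.05 to 0.27), SFTPB (−0.07 to 0.17) and NAPSA (−0.23 to 0.1). In CPB against control it turned for ABCA3 (−0.07 to 0.13) and SLC34A2 (−0.19 to 0.17) in ileum and for SLC34A2 (−0.06 to 0.41) in kidney. None of these was a call, and the cause was not tested. Depth does not limit the members in lung, where no library was near 0 for any of them, while the SFTPC and SFTPA1 calls in kidney rest on fewer than 100 counts per library.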
